A study of Mus musculus with 2 samples.

Results

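The Krt15-dominant cells with little Gpha2 were 246 of the 6188 cells kept from sorted mouse corneal epithelium. A cell belonged to them when it had at least 5 UMIs of Krt12 and Krt15 together, a Krt12 share of that sum below 0.4, at most 2 UMIs of Krt4, Krt13 and Krt19 together, and 0 or 1 UMI of Gpha2. UMIs, or unique molecular identifiers, are molecular tags by which PCR copies of a captured RNA are counted as 1. Kept cells passed a minimum of 500 genes and had a mitochondrial share of UMIs below 20%. The cells came from CycB1-GFP mice, whose green fluorescent reporter of Cyclin B1 marks cycling cells, and all cells were sorted as live and GFP-positive. No group without the reporter, without the sort or with another genotype was analysed here, so every class below shares both. The labels give 1 group of 2 replicates, and barcodes end in 1 of 2 numbers, called library 1 and library 2 because no label ties a number to a replicate. The labels do not say whether the libraries came from separate animals. The p-values thus measure only how far differences between classes varied between these 2 libraries, over the 4 classes compared.

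The limbus is the ring of epithelium at the edge of the cornea where its stem cells lie. Krt15, a type I keratin, marks limbal and conjunctival basal cells, while Krt12 is the keratin of the corneal epithelium proper. Gpha2, a subunit of a glycoprotein hormone, is known as a marker of limbal stem cells that divide rarely, and Krt4, Krt13 and Krt19 are keratins of the neighbouring conjunctiva. The gate therefore takes cells with more Krt15 than Krt12 that lack both a clear Gpha2 signal and a clear conjunctival keratin signal. That keratin balance alone does not tell limbal from conjunctival cells. On GRCm38, in the GENCODE M21 annotation, Krt15 lies on the minus strand at chr11:100131758-100135928, Krt12 on the minus strand at chr11:99415666-99422259 and Gpha2 on the plus strand at chr19:6226380-6227768.

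Library 1 held 139 members, 4.36% of its 3187 kept cells (exact Clopper-Pearson 95% interval 3.68% to 5.13%). Library 2 held 107 members, 3.57% of 3001 kept cells (2.93% to 4.29%). These intervals, and all others given here, cover counting error only. The comparison classes were defined on the same counts. Krt15-dominant cells with 2 or more Gpha2 UMIs, called Gpha2-high, numbered 294 in library 1 and 450 in library 2. Krt12-dominant cells, with a Krt12 share above 0.8, numbered 2204 and 1761. Krt15-dominant cells with 3 or more UMIs of Krt4, Krt13 and Krt19, called conjunctival-keratin cells, numbered 230 and 402. The matrix held 19001107 UMIs in library 1 and 18030874 in library 2, of which members held 669765 and 367169. Only 5 barcode sequences occurred in both libraries, and 1 member had such a barcode.

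Depth differed between the classes, most of all in library 2. Members had a median of 4536 UMIs in library 1 and 3015 in library 2, against 4640.5 and 4742.5 in Gpha2-high cells and 5705.5 and 6356 in Krt12-dominant cells. In library 2, 40 of the 107 members had under 2000 UMIs, against 10 of 139 in library 1. The median mitochondrial share of members was 3.44% in library 1 and 4.64% in library 2, against 3.42% and 4.42% in Gpha2-high cells. A low count favours a Gpha2 reading of 0, and the share of Krt15-dominant cells that fell under the Gpha2 limit moved with depth. Among cells under 2000 UMIs that share was 66.7% in library 1 and 69.0% in library 2. In library 1 it then lay at 28.8% from 2000 to under 4000 UMIs, 31.9% from 4000 to under 6000, and 31.2% at 6000 or more. In library 2 it was 19.1%, 11% and 12.5% over the same ranges. Cells with little Gpha2 were thus still found among the deepest cells of both libraries, 34 of 109 in library 1 and 10 of 80 in library 2.

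**Figure D1:**
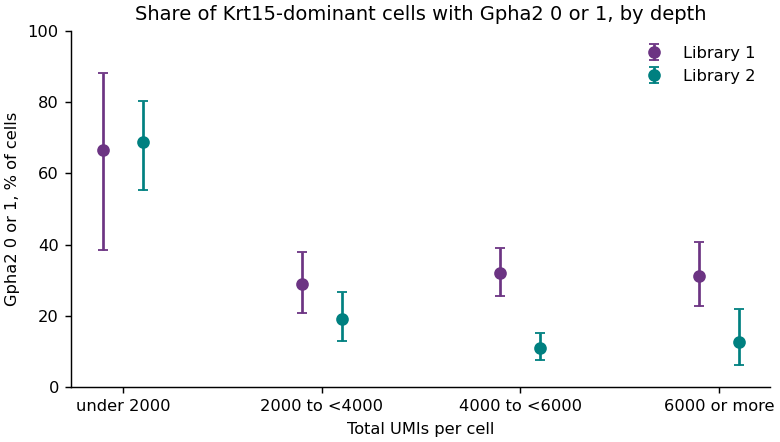
Share of Krt15-dominant cells with few Krt4, Krt13 and Krt19 UMIs that had 0 or 1 Gpha2 UMI (y axis, % of cells) by total UMIs per cell (x axis), in library 1 and library 2, with exact 95% intervals as bars. The share was 66.7% and 69.0% under 2000 UMIs and did not exceed 31.9% in any deeper bin.

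Gpha2 counts ran on across the limit of the gate. Of the Krt15-dominant cells of library 1, 77 had 0 Gpha2 UMIs, 62 had 1, 51 had 2 and 38 had 3. In library 2 the numbers were 53, 54, 47 and 38, followed by 61 cells with 4 and 50 with 5. The fullest count was thus 0 UMIs in library 1 and 4 UMIs in library 2, with cells at every count between the members and the Gpha2-high cells. Just inside the Krt12 limit, 20 and 8 members had a Krt12 share between 0.3 and 0.4, and just outside it 16 and 9 otherwise eligible cells had a share between 0.4 and 0.5. At the conjunctival keratin limit, 23 and 21 members had 2 such UMIs, and 20 and 17 cells just outside had 3. Only 1 member of library 1 and 6 of library 2 had the minimum sum of 5, against 2 and 1 cells outside with a sum of 4.

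**Figure D2:**
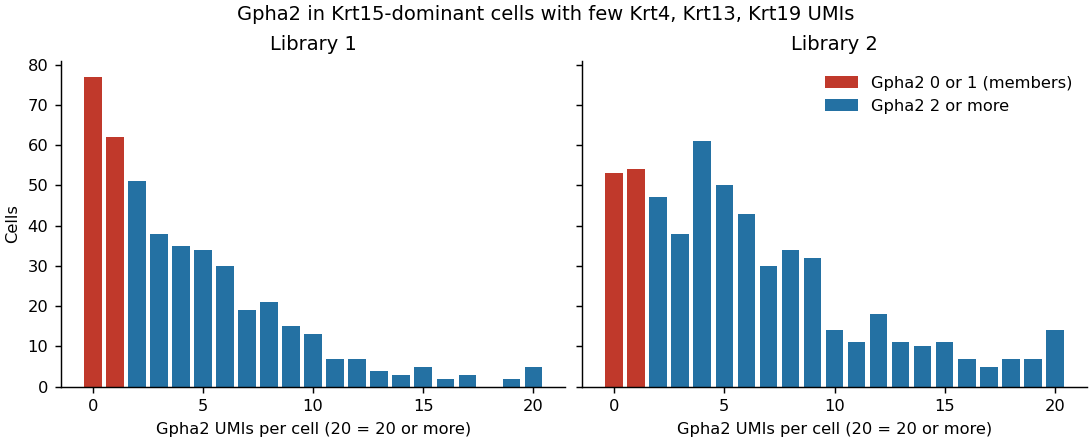
Number of Krt15-dominant cells with at most 2 UMIs of Krt4, Krt13 and Krt19 (y axis, cells) by Gpha2 UMIs per cell (x axis, 20 stands for 20 or more) in each library, members in red and Gpha2-high cells in blue. The bars fall without a gap from 0 to 3 UMIs in library 1, and in library 2 the tallest bar is at 4 UMIs with 61 cells.

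The genes that set the gate are given as a description, with no test. Levels here and below are UMIs of a gene scaled to the normalised class total in the usual way (CPM), summed over the cells of a class in a library. Krt15 stood at 5463 CPM in members of library 1 and 7049 in library 2, near the 4864 and 6582 of Gpha2-high cells and far above the 190 and 208 of Krt12-dominant cells. Gpha2 stood at 93.5 and 144 CPM in members, 1232 and 1615 in Gpha2-high cells and 42.2 and 64.8 in Krt12-dominant cells. Krt12 stood at 814 and 678 CPM in members, against 443 and 338 in Gpha2-high cells. Conjunctival-keratin cells had 9765 and 13148 CPM of Krt15, 911 and 480 of Krt12, and 409 and 634 of Gpha2. No Krt12 UMI was found in 33 of 139 members of library 1 and 44 of 107 of library 2, and no Krt4, Krt13 or Krt19 UMI in 73 and 54.

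The label names Krt17, Igfbp3, Serpinb3a, Lcn2 and Sprr1a as markers beside Krt15. These were chosen with the cells, so their values stand without a test. Krt17, a keratin of activated and appendage epithelium, was at 2299 and 2163 CPM in members, above the 1545 and 1460 of Gpha2-high cells and the 339 and 85.4 of Krt12-dominant cells. Conjunctival-keratin cells had more of it, 3367 and 2203 CPM. Serpinb3a, a clade B serine protease inhibitor of squamous epithelia, was at 133 and 50.5 CPM, against 9.38 and 11.6 in Gpha2-high cells and 1.13 and 1.18 in Krt12-dominant cells. For both genes the sums of members lay above those of Gpha2-high and Krt12-dominant cells, but both were chosen with the cells. The share of all genes with such sums was not counted. Serpinb3a was read in only 16 members of library 1 and 8 of library 2, and the 5 cells with the most of it held 79.5% and 84.2% of its UMIs. Conjunctival-keratin cells had more of it, 230 and 155 CPM. Reads of Serpinb3a may be shared with its near-identical neighbours Serpinb3b, Serpinb3c and Serpinb3d.

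For the other 3 markers the sums of members and Gpha2-high cells overlapped. Lcn2, an iron-binding defence protein, was at 369 and 197 CPM in members and 318 and 157 in Gpha2-high cells, so that both classes of library 1 lay above both of library 2. Igfbp3, which binds insulin-like growth factors, was at 67.8 and 10.6 CPM in members, the latter from 4 UMIs, and 59.6 and 21.3 in Gpha2-high cells. Sprr1a, a precursor of the cornified envelope, was at 12.1 CPM in members of library 1 from 8 UMIs. It had 0 UMIs in library 2, which allows up to 7.98 CPM. Its level in conjunctival-keratin cells was 131 and 30.5 CPM. With every cell thinned to 2000 UMIs and shallower cells left out (10 members of library 1 and 40 of library 2), Krt17 was found in 83.0% of library 1 members and 76.1% of library 2 members. Before thinning these shares were 88.5% and 76.6%. Thinned Serpinb3a shares were 9.30% and 7.46% in members, 1.73% and 0.926% in Gpha2-high cells and 0.154% and 0.256% in Krt12-dominant cells. The unthinned shares in members were 11.5% and 7.48%.

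Other cell types were checked by their defining genes. The immune genes Ptprc, Lyz2, Tyrobp, Fcer1g and Cd3e had no UMI in members of either library. Cd74 and H2-Ab1, which present antigen and are also made by some epithelia, summed with them to 13.6 CPM in library 1 and 85.1 in library 2, against 2.68 and 102.6 in Gpha2-high cells. All 4 endothelial and all 3 Schwann cell genes were at 0 in members. Of 6 fibroblast and keratocyte genes only Dcn had a UMI, 2.66 CPM in library 2. Of 5 melanocyte genes, 1 had a UMI in library 1 and 3 in library 2, with sums of 1.51 and 7.98 CPM. The 7 sebaceous and meibomian genes summed to 12.1 and 13.3 CPM. Of 12 skin and hair follicle genes, 5 had a UMI in each library, and their sums of 61.8 and 37.2 CPM lay beside 70.3 and 35.1 in Gpha2-high cells. Of 16 conjunctival genes, 10 had a UMI in library 1 and 11 in library 2, with Muc16, Muc5ac, Spdef, Tff1 and Pigr at 0 in both. Their sum was 1128 and 1779 CPM in members, 1108 and 1768 in Gpha2-high cells and 1533 and 2957 in conjunctival-keratin cells.

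Members were then compared with Gpha2-high cells on genes that the gate did not use, in an edgeR quasi-likelihood fit of 8 sums (4 classes in 2 libraries, library as a block) with 3 residual degrees of freedom. Of 10025 genes tested, 50 passed an adjusted p of 0.05 (0.499%), 36 higher in members (0.359%) and 14 lower (0.14%). The given marker Serpinb3a, chosen with the cells, is counted among the 36. Before adjustment, 777 genes had a p under 0.05. The median log2 difference over all genes was 0.01. Rbp2, Calml3, Krt16 and Ceacam1 were among the genes higher in members, and Wnt10a, Wnt6, Jag2, Igfbp7 and Apoe among those lower. With total UMIs of the other classes matched to the members, 3 genes were higher and 1 lower, but only 7 Gpha2-high cells of library 2 were left. Of these calls, 2 and 0 were among the 36 and 14. With only cells of at least 4000 UMIs, 19 were higher and 11 lower, of which 17 and 9 were among the 36 and 14. Without library as a block, 2 genes were higher and 0 lower (493 before adjustment).

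Rbp2, a cellular retinol-binding protein, lies on the plus strand at chr9:98486115-98509781 (GRCm38). Its level was 130 CPM in members of library 1 and 104 in library 2, against 28.8 and 22.6 in Gpha2-high cells. Members of both libraries lay above both Gpha2-high sums, and the log2 difference was 2.19 (SE 0.19, edgeR adjusted p = 3.5e-07). Krt12-dominant cells had 134 and 102 CPM, close to the members, and conjunctival-keratin cells 323 and 302. The thinned share of cells with an Rbp2 UMI was 23.3% and 20.9% in members and 3.11% and 3.70% in Gpha2-high cells (unthinned 36.0% and 15.9% in members, 10.5% and 8.22% in Gpha2-high cells). The 86 UMIs of library 1 came from 50 members and the 39 UMIs of library 2 from 17.

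Calml3, a calmodulin-like protein of differentiating epithelium, lies on the minus strand at chr13:3802896-3804316 (GRCm38). It stood at 832 and 1016 CPM in members and 458 and 568 in Gpha2-high cells, again without overlap, a log2 difference of 0.85 (SE 0.09, edgeR adjusted p = 6.53e-06). Its level was 781 and 1101 CPM in Krt12-dominant cells and 1653 and 1972 in conjunctival-keratin cells. Single libraries gave log2 differences of 0.86 and 0.84. Calml3 was read in 124 of 139 members of library 1 and 82 of 107 of library 2, so its level does not rest on a few cells.

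Of 14 tested genes of the wound keratin and alarmin list, 2 rose and none fell, with a median log2 difference of 0.45. Over all genes tested, 0.359% were higher and 0.14% lower. Krt16, a keratin induced in wounded and hyperproliferative epithelium, was at 166 and 37.2 CPM in members and 31.5 and 14.3 in Gpha2-high cells. The log2 difference was 2.05 (SE 0.24, edgeR adjusted p = 0.000141). The libraries differed in how many cells carried it, 110 UMIs in 24 members of library 1 and 14 UMIs in 3 members of library 2. With the Krt12 share held under 0.2 in both members and Gpha2-high cells, the Krt16 difference was 0.71 (edgeR adjusted p = 0.73). Krt12-dominant cells held 306 and 78.7 CPM of Krt16. Krt6b, a partner keratin of Krt16, was at 27.1 and 37.2 CPM in members and 8.04 and 10.6 in Gpha2-high cells (log2 difference 1.69, SE 0.33, edgeR adjusted p = 0.013). Krt6a, whose sequence is close enough to Krt6b to share reads, was at 980 and 952 against 385 and 330 CPM, with no overlap but a wide error (log2 difference 1.42, SE 0.51, edgeR adjusted p = 0.674). No alarmin of the list passed. Il33 was at 19.6 and 18.6 CPM in members and 15.4 and 19.4 in Gpha2-high cells, and Il1rn, the interleukin 1 receptor antagonist, at 28.6 and 23.9 against 25.4 and 20.8.

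Genes of cell-cell junctions and the cornified layer were next. Dsc2, a desmosomal cadherin, was the only one of 18 tested cornified and surface genes that passed, at 140 and 144 CPM in members and 89.7 and 88.7 in Gpha2-high cells (log2 difference 0.67, SE 0.14, edgeR adjusted p = 0.0248). The median of that list was 0.58, and 0.359% of all genes tested were higher. Outside the lists, and named after their values were seen, 3 further desmosome genes passed. Pkp1, plakophilin 1, was at 194 and 213 against 117 and 142 CPM. Jup, plakoglobin, was at 301 and 319 against 200 and 233 CPM, and Perp, a desmosomal membrane protein, at 986 and 1061 against 739 and 808. Their log2 differences were 0.63, 0.51 and 0.40, with edgeR adjusted p-values of 0.0381, 0.0442 and 0.0248. Of 11 alternatives, Pkp1 kept its call in 3, Jup in 2 and Perp in 7. Evpl, envoplakin, which links desmosomes to the cornified envelope, rose from 41.5 and 49.9 to 75.4 and 90.4 CPM (log2 difference 0.85, SE 0.19, edgeR adjusted p = 0.0295). Cldn7, a tight junction claudin, was at 178 and 277 CPM against 117 and 156, the only one of 15 junction and transport genes to pass (log2 difference 0.70, SE 0.15, edgeR adjusted p = 0.0356). Dsc2 kept its call in 6 of the 11 alternatives, Evpl in 5 and Cldn7 in 4. For all 6 of these genes conjunctival-keratin cells stood higher than members in both libraries.

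Ceacam1, a cell adhesion molecule of mucosal epithelium, was at 57.3 and 98.4 CPM in members, 18.8 and 36.5 in Gpha2-high cells and 231 and 241 in conjunctival-keratin cells (log2 difference 1.39, SE 0.26, edgeR adjusted p = 0.013). Krt12-dominant cells had 13.6 and 14.5 CPM, so that the members lay above both. With only cells that had no Krt4, Krt13 or Krt19 UMI the difference was 1.18 (edgeR adjusted p = 0.51). The gate let in up to 2 UMIs of those keratins, and members held 58.8 and 87.8 CPM of Krt4, 37.7 and 50.5 of Krt13 and 37.7 and 58.5 of Krt19, against 66.3 and 67.5, 24.1 and 25, and 16.7 and 32.8 in Gpha2-high cells. The part of cells near the conjunctival class in the calls was not tested beyond that alternative. Under it, 11 genes were higher and 7 lower, and 10 and 4 of these were among the 36 and 14.

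Baiap2, an adaptor for actin remodelling, was at 87.4 and 101 against 46.9 and 50.8 CPM. Chchd10, a mitochondrial protein whose exons overlap Mmp11 on the other strand, was at 118 and 114 against 52.9 and 71.6. Fgfbp1, which releases fibroblast growth factors from matrix, was at 188 and 106 against 108 and 61.9, so members of library 2 lay just below Gpha2-high cells of library 1. Scd2, a fatty acid desaturase, was at 148 and 98.4 against 84.4 and 58.2. Prdx5, a peroxiredoxin that overlaps Trmt112 on the other strand, was at 517 and 375 against 281 and 247, and Urah, of the urate pathway, at 389 and 194 against 216 and 137. Their log2 differences were between 0.70 and 0.92. Whether the counting used strand is not given in the sources used here, so reads of overlapping genes cannot be told apart.

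Slpi, a secreted protease inhibitor, and Wfdc18, a secreted protein of the same domain family, moved in opposite directions among the 10 tested defence genes. Of all genes tested, 0.499% passed in either direction. Slpi was at 101 and 10.6 CPM in members against 18.8 and 4.62, with 67 UMIs in 16 cells of library 1 but 4 UMIs in 3 cells of library 2 (log2 difference 2.12, SE 0.40, edgeR adjusted p = 0.013). Wfdc18 fell to 1250 and 3229 CPM from 1914 and 4017 in Gpha2-high cells (log2 difference -0.46, SE 0.09, edgeR adjusted p = 0.0214). The direction for Wfdc18 held in each library, although members of library 2 lay above Gpha2-high cells of library 1.

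**Figure D3:**
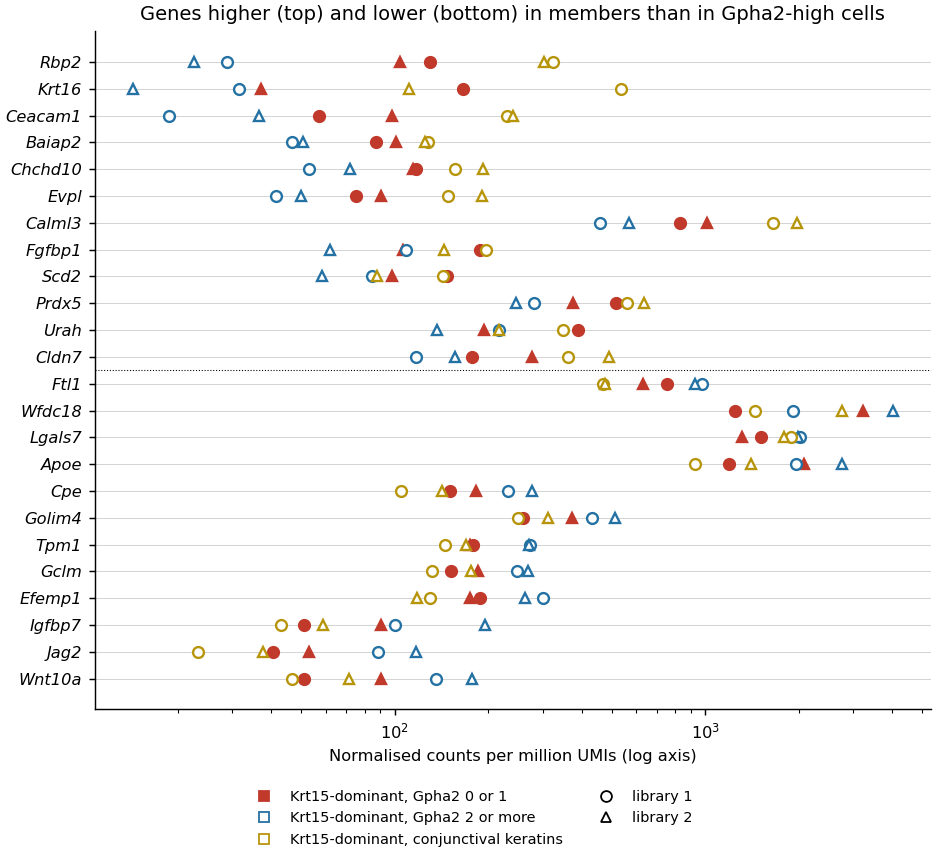
Normalised level in CPM (x axis, log axis) of the 24 genes named by rule, 12 higher (top) and 12 lower (bottom) in members than in Gpha2-high cells, for members, Gpha2-high and conjunctival-keratin cells in library 1 (circles) and library 2 (triangles). Rbp2 stands at 130 and 104 in members between 28.8 and 22.6 in Gpha2-high cells and 323 and 302 in conjunctival-keratin cells, and each point is 1 sum with no error bar.

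Lower in members were 2 of the 12 tested Wnt pathway genes, both ligands, beside 0.14% of all genes tested. Wnt6 and Wnt10a lie side by side on the plus strand of chromosome 1, at chr1:74771892-74785322 and chr1:74791516-74804179 (GRCm38). Wnt10a was at 51.3 and 90.4 CPM in members and 136 and 177 in Gpha2-high cells, without overlap, a log2 difference of -1.20 (SE 0.18, edgeR adjusted p = 0.00113). Its level in Krt12-dominant cells was 54.5 and 67.2 CPM and in conjunctival-keratin cells 46.7 and 71.3. Wnt6 was at 10.6 and 7.98 CPM in members, from 7 and 3 UMIs, and 35.5 and 36.0 in Gpha2-high cells (log2 difference -1.86, SE 0.39, edgeR adjusted p = 0.0226). With at least 4000 UMIs a cell its adjusted p was 0.0996 in edgeR. Both ligands were thus higher in Gpha2-high cells than in any of the other 3 classes, whose values lie side by side. The list's median log2 difference was -0.09.

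In the Notch pathway a ligand and a receptor moved in opposite directions among 10 tested genes, beside 0.499% of all genes passing either way. Jag2, a ligand, fell to 40.7 and 53.2 CPM from 88.4 and 117 (log2 difference -1.12, SE 0.20, edgeR adjusted p = 0.00702), and the 2 libraries gave -1.12 and -1.14. Notch3, a receptor, was at 34.7 and 37.2 CPM in members and 11.4 and 9.24 in Gpha2-high cells, from 23 and 14 UMIs (log2 difference 1.86, SE 0.36, edgeR adjusted p = 0.013). Krt12-dominant cells had 34.7 and 49.9 CPM of Notch3. With Gpha2 0 as the limit its adjusted p was 0.082 in edgeR.

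Igfbp7, a secreted binder of insulin-like growth factors, was the only one of 8 tested genes of that family to pass, and it was lower. Among all genes tested, 0.14% were lower. Igfbp7 was at 51.3 and 90.4 CPM in members, 100.4 and 196 in Gpha2-high cells and 9.65 and 15.3 in Krt12-dominant cells (log2 difference -1.07, SE 0.19, edgeR adjusted p = 0.00691). Its exons overlap Polr2b on the other strand. Apoe, a lipid carrier, was the only one of 14 tested limbal genes to pass, at 1191 and 2085 CPM against 1960 and 2766 (log2 difference -0.56, SE 0.09, edgeR adjusted p = 0.00202). Gphb5, which codes for the partner subunit of the Gpha2 product, did not pass the test. It was at 55.8 and 226 CPM in members and 38.2 and 184 in Gpha2-high cells, a log2 difference of 0.35 (SE 0.21, edgeR adjusted p = 0.754). Krt12-dominant cells had 1.05 and 2.10 CPM. The thinned share of cells with a Gphb5 UMI was 9.30% and 17.9% in members, 6.92% and 21.3% in Gpha2-high cells, and 0.103% and 0.256% in Krt12-dominant cells (unthinned in members 12.2% and 26.2%). In members, 17 cells of library 1 and 28 of library 2 carried it.

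The other lower genes named by rule had log2 differences between -0.62 and -0.45. Lgals7, a galectin of stratified epithelia, was at 1509 and 1319 CPM in members against 2016 and 1993, and Tpm1, a tropomyosin of actin filaments, at 179 and 176 against 274 and 271. Gclm, the modifier subunit of glutathione synthesis, was at 152 and 186 against 247 and 269, while Gsta4, a glutathione transferase, was higher at 965 and 1101 against 613 and 913. These were the 2 of 12 antioxidant genes that passed (log2 differences -0.62 and 0.46), beside 0.499% of all genes tested. Efemp1, a matrix protein, Golim4, a Golgi membrane protein, Cpe, a carboxypeptidase, and Ftl1, the ferritin light chain, were the others in that range.

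With 0.499% of all tested genes past the threshold against Gpha2-high cells, a list of 30 genes or fewer would mostly hold none. Several lists held no gene past it. They were the 26 lineage transcription factors, 15 genes of basal adhesion, 15 immediate early genes, 13 interferon genes, 9 heat shock genes, 10 genes of Yap and Tead signalling, 10 cell cycle inhibitors, 25 S phase genes, 30 G2 and M phase genes, 11 conjunctival genes and 10 corneal genes. The 10 Yap and Tead genes had a median log2 difference of -0.20, the 11 conjunctival genes 0.38 and the 10 corneal genes 0.38, beside 0.01 over all genes. Sox9, a factor of limbal and follicle progenitors, was at 235 and 138 CPM in members and 310 and 167 in Gpha2-high cells (log2 difference -0.32, SE 0.14, edgeR adjusted p = 0.558). Trp63, the p63 gene of basal epithelium, was at 154 and 157 against 163 and 195. Cdkn1a, a cell cycle inhibitor, was at 70.8 and 39.9 against 42.9 and 18.9 CPM (log2 difference 0.91, SE 0.25, edgeR adjusted p = 0.145).

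The reporter sort takes cycling cells, and no cell cycle gene of the lists passed against Gpha2-high cells. Only 0.499% of all tested genes passed there, so lists of this size would mostly hold none. Mki67 was at 755 and 950 CPM in members and 775 and 1044 in Gpha2-high cells (log2 difference -0.09, SE 0.10, edgeR adjusted p = 0.885). Top2a was at 972 and 1226 against 1120 and 1127, and Ccnb1 at 175 and 226 against 196 and 198. The thinned share of members with an Mki67 UMI was 70.5% (interval 61.9% to 78.2%) in library 1 and 86.6% (76.0% to 93.7%) in library 2, against 70.9% and 71.8% of Gpha2-high cells. Without thinning the members' shares were 83.5% and 80.4%. The 30 G2 and M phase genes had log2 differences between -0.35 and 0.28, with a median of 0.00.

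**Figure D4:**
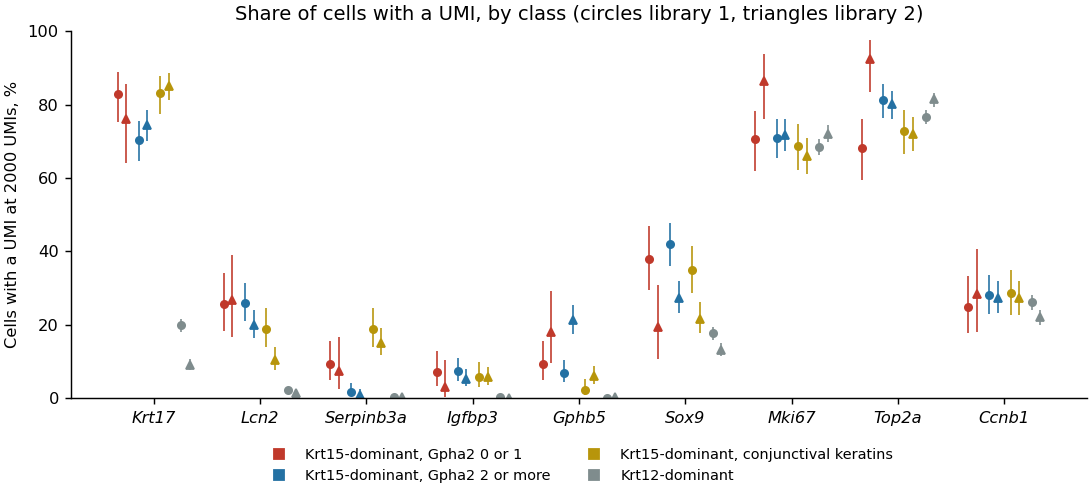
Share of cells with at least 1 UMI of each gene after thinning every cell to 2000 UMIs (% of cells, with exact 95% intervals). Members, Gpha2-high, conjunctival-keratin and Krt12-dominant cells of each library are shown. Lcn2 was found in 25.6% and 26.9% of members and 26.0% and 19.9% of Gpha2-high cells.

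The second comparison set members against Krt12-dominant cells of the same libraries. Of 10025 genes tested, 1442 passed (14.4%), 772 higher in members (7.7%) and 670 lower (6.68%). Before adjustment, 2564 genes had a p under 0.05. Krt12 and Krt15 had defined both classes, so the direction of known corneal genes such as Aldh3a1 is not independent of the gate. The counts depended on the setting, with 308 and 278 without library as a block and 638 and 377 in DESeq2.

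Alox12e, Wfdc18, Gphb5 and Sftpd led the genes named by rule as higher in members than in Krt12-dominant cells. Alox12e, an epidermal-type lipoxygenase, was at 109 and 418 CPM in members and 0.483 and 2.82 in Krt12-dominant cells, a log2 difference of 7.27 (SE 0.21, edgeR adjusted p = 1.94e-17). Wfdc18 had a log2 difference of 6.53, Gphb5 of 6.39 and Sftpd, a collectin of mucosal defence, of 6.14. Krt7, a simple epithelial keratin, was at 88.9 and 290 CPM against 2.90 and 5.19 (log2 difference 5.44). Sox4, a transcription factor of progenitors, was at 303 and 176 CPM against 18.2 and 7.01 (log2 difference 4.27), and Cldn3, a claudin, at 113 and 168 against 5.07 and 6.65. Alox15, Ccdc3, Cd63, Filip1l and Tppp3 completed the 12 named by rule, with log2 differences between 4.03 and 5.70. For all 12 the members and Krt12-dominant sums did not overlap, which their selection by large differences of the same sign in both libraries largely set. Gpha2-high cells stood on the members' side for these genes.

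By list, 6 of 14 limbal genes were higher and none lower. Of all genes tested, 7.7% were higher and 6.68% lower, which is the share to set beside each list here. Apoe stood at 1191 and 2085 against 174 and 305 CPM, Cebpd, a factor of slow-cycling limbal cells, at 79.9 and 79.8 against 23.0 and 26.2, and Sox9 at 235 and 138 against 98.4 and 74.2 (log2 differences 2.77, 1.72 and 1.09). Of 10 defence genes 6 were higher, Ltf, Wfdc18, Il1rn, Slpi, Cxcl16 and the given marker Lcn2. Ltf, lactoferrin, was at 13.6 and 26.6 CPM in members, 0.0805 in Krt12-dominant cells of library 1 and 0 in library 2. Of 8 insulin-like growth factor genes 5 were higher and Igfbp5 lower, and Igfbp2 was at 199 and 285 CPM against 38.0 and 24.0 (log2 difference 2.91). Igfbp3, the given marker, is among those 5. Of 11 conjunctival genes 5 were higher, Krt7, Krt18, Agr2, Ltf and Alox12e. The summed level of the conjunctival list was 1128 and 1779 CPM in members and 1108 and 1768 in Gpha2-high cells, a difference that was not tested as a sum.

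Among 26 lineage factors 11 were higher and 3 lower in members, beside 7.7% and 6.68% of all genes tested. Barx2, a homeobox factor of ocular surface glands, was at 193 and 263 CPM against 20.4 and 7.83 (log2 difference 3.95, SE 0.65, edgeR adjusted p = 0.0491). Klf5, a factor of basal epithelium, was at 384 and 330 against 178 and 157, and Foxc1, of the anterior eye, at 164 and 152 against 79.4 and 60.1. Klf4, a factor of differentiation, was lower at 365 and 152 against 1044 and 778 (log2 difference -1.90, SE 0.30, edgeR adjusted p = 0.021). Pax6, needed for corneal identity, was at 446 and 460 against 570 and 469 CPM (log2 difference -0.20, SE 0.10, edgeR adjusted p = 0.214).

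The 12 genes named by rule as lower in members were led by Slurp1, Lypd2 and Aqp5. Aldh3a1, the corneal crystallin, was at 895 and 960 CPM in members and 7907 and 11206 in Krt12-dominant cells (log2 difference -3.35, SE 0.17, edgeR adjusted p = 1.97e-05). Slurp1, a secreted antiinflammatory protein, was at 28.6 and 7.98 against 1008 and 1112 CPM, and Lypd2 at 54.3 and 61.2 against 2081 and 3753 (log2 differences -5.63 and -5.57). Aqp5, a water channel, was at 69.3 and 85.1 against 2325 and 3004, and Tkt, transketolase, at 1069 and 987 against 6533 and 8720. Of 10 corneal genes 6 were lower and Cdh13 higher. Immediate early genes were lower in 7 of 15, among them Fos at 592 and 271 against 1559 and 560 CPM and Zfp36 at 104 and 45.2 against 297 and 139. In both classes library 1 stood above library 2 for these 2 genes. Of 13 interferon genes 4 were lower, and of 15 basal adhesion genes 4 were lower and Lamb3 higher. Col17a1, the hemidesmosome collagen, was at 469 and 386 against 997 and 1036 CPM (log2 difference -1.23). Of 30 G2 and M phase genes 4 were higher, led by Cdc20, the activator of the anaphase ligase, at 332 and 540 against 230 and 225. Of 25 S phase genes 1 was higher and 4 lower. Over all genes tested, 7.7% were higher and 6.68% lower.

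**Figure D5:**
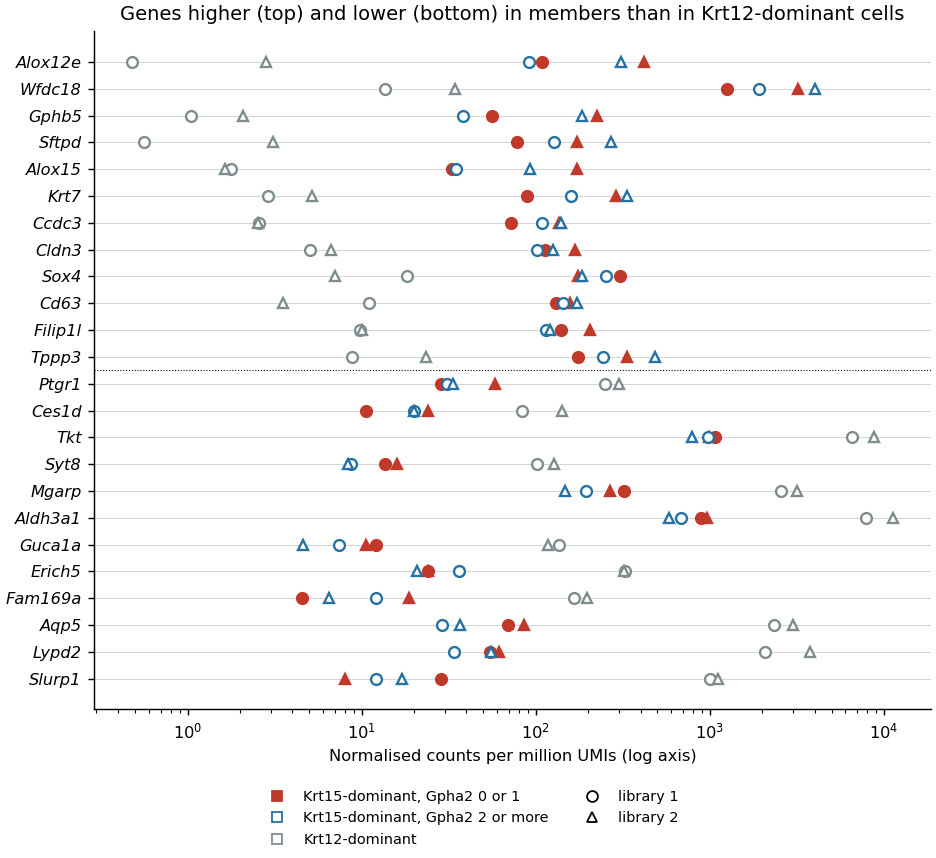
Normalised level in CPM (x axis, log axis) of the 24 genes named by rule, 12 higher (top) and 12 lower (bottom) in members than in Krt12-dominant cells, for members, Gpha2-high and Krt12-dominant cells in library 1 (circles) and library 2 (triangles). Alox12e stands at 109 and 418 in members and 0.483 and 2.82 in Krt12-dominant cells, and each point is 1 sum with no error bar.

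The third comparison was with conjunctival-keratin cells, a class that the gate could admit where conjunctival keratin counts are low. Of 10025 genes tested, 221 passed (2.2%), 59 higher in members (0.589%) and 162 lower (1.62%). Before adjustment, 1270 genes had a p under 0.05. The classes were split on conjunctival keratins, so the direction of other conjunctival genes is not independent of the gate. Gpha2 had no limit in conjunctival-keratin cells and stood at 409 and 634 CPM there, against 93.5 and 144 in members. The classes thus also differ in Gpha2, and its part in these calls was not tested. Of 11 conjunctival genes 5 were lower and none higher, and of 18 cornified and surface genes 3 were lower and none higher. Muc4, a membrane mucin, was at 3.01 and 5.32 CPM in members and 71.5 and 137 in conjunctival-keratin cells, and Krt6b at 27.1 and 37.2 against 506 and 546 (log2 differences -4.59 and -4.09). Hopx, a factor of differentiating epithelium, was at 12.1 and 39.9 against 129 and 268, and Gsto1, a glutathione transferase, at 577 and 801 against 2410 and 3338. Spink5, Plac8, Mal, Pdzk1ip1, Ablim1, Defb1, Pglyrp1 and Ceacam1 were the other 8 named by rule, with log2 differences between -3.23 and -1.66.

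Gphb5 had the largest increase over conjunctival-keratin cells among the 12 genes named by rule. It was at 55.8 and 226 CPM against 24.1 and 54.7 (log2 difference 1.81, SE 0.24, edgeR adjusted p = 0.000158). Of 15 basal adhesion genes 3 were higher and none lower. Itgb4, the hemidesmosome integrin, was at 182 and 213 CPM against 79.9 and 121, Lamb3, a chain of laminin 332, at 128 and 104 against 58.7 and 72.1, and Col17a1 at 469 and 386 against 276 and 259. Mt2, a metallothionein, was at 870 and 508 against 445 and 283. Sfrp1, a secreted Wnt inhibitor, was at 393 and 524 against 223 and 319. Gas1, Palld, Mxra7, Gja1, Tgfbi, Eid1 and Fos were also among the 12 named. Of 30 G2 and M phase genes and 25 S phase genes, none passed in either direction, beside 2.2% of all genes tested. The 3 comparisons share the members, so their values stand side by side and their overlap is not a result.

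Members were not uniform. The given marker Serpinb3a was at 213 and 57.5 CPM in members with 0 Gpha2 UMIs and 30.0 and 47.5 in those with 1. Rbp2 was at 140 and 185 CPM with 0 and 113 and 47.5 with 1, while Wnt10a was at 43.2 and 63.9 with 0 and 60.1 and 114 with 1. Gphb5 was at 21.6 and 224 CPM with 0 and 96.8 and 237 with 1, from 8 and 29 UMIs in library 1 and 35 and 50 in library 2, so the gap was wide in library 1 and small in library 2. Depth also separated members. In library 1, Gphb5 was at 20.4 CPM in members of at least 4000 UMIs and 201 in those below, and Wfdc18 was at 799.7 and 3064. In library 2, Gphb5 was at 192 and 299.9 and Wfdc18 at 3238 and 3426. Whether shallower members differ in kind was not tested.

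Members also varied in how many of the genes higher than in Gpha2-high cells they carried. Of 10 such genes picked after their values were seen (Serpinb3a, Krt16, Krt6b, Rbp2, Ceacam1, Krt80, Arg1, Nectin4, Zfp750 and Slpi), 3 or more were detected in 35 of 139 members of library 1 (25.2%) and 11 of 107 of library 2 (10.3%). None was detected in 30.2% and 44.9%. In conjunctival-keratin cells 3 or more were detected in 51.7% and 49.3%. In Gpha2-high cells, against which the genes were picked, the shares were 7.48% and 5.56%. Members with 3 or more had a median of 5408 and 5375 UMIs, against 4275 and 2996.5 for members with none. Of the 16 Serpinb3a-bearing members of library 1, 7 also had Rbp2 and 4 had Krt16. Of the 8 in library 2, 5 had Rbp2 and 1 had Krt16. These shares move with depth and describe these cells only.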

How the data were processed

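Single-cell RNA of GFP-sorted corneal epithelium was measured with the 10x Genomics Chromium 3' v3 kit, per the labels' protocols. The authors deposited 1 matrix of whole-number UMI counts for 31053 genes and 6752 barcodes, not normalised. Cell Ranger 3.1.0, Seurat 5.0.0 and the build GRCm38 (mm10) are listed in the submitters' processing notes, and whether depth was equalised between libraries is not given in the sources used here. The cell filters and the gate are given with the results. Of all barcodes, 475 were under the gene minimum and 311 over the mitochondrial limit. No doublets were removed in the main analysis. Scrublet scores (scanpy 1.11.5) were used only for an alternative, and the highest 3% of scores held 3 members of library 1 and 0 of library 2.

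The members and gene lists were chosen with earlier results of these data known. For each library, the UMI counts of all cells of a class were added up, and the sums entered edgeR 4.0.16 in R 4.3.3 (robust quasi-likelihood test, TMM, filterByExpr, library as a block, Benjamini-Hochberg over all genes tested, threshold 0.05). Library is a block because all class sums of a library come from 1 sample. The 6 gate genes stayed in the library sizes and were left out of the calls. Genes are named by rule where they are among the 12 largest log2 differences in a direction among those that passed, agree in sign between libraries and have a mean of at least 50 CPM. Mitochondrial, ribosomal protein, sex-linked and unnamed model genes were left out, and list genes past the threshold were added. Of the 6 markers given with the cells, Krt15 is a gate gene. The others were not left out of the tests and counts, and Serpinb3a is among the genes counted as higher than in Gpha2-high cells. Their p-values are not given, and they are not among the genes named by rule. Shares of cells with a UMI were taken after thinning each cell to 2000 UMIs. As a background, cells with 3 or more of 7 immune markers were planned, but only 5 of the 9 were deep enough, so Krt12-dominant cells serve beside them. On simulated counts, 120 of 200 genes changed by 1 on the log2 scale were recovered among 9834 genes in the comparison with Gpha2-high cells, with 5 false calls. The simulation had no library effect, no other differences between classes and a higher dispersion than the real fit. Its counts therefore do not give the error rates of the real fit.

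Gene positions are from the GENCODE M21 annotation. Alternatives were DESeq2 1.42.0, no filter on low counts, no replicate block, each library alone, matched or higher depth, and stricter gates.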

Additional observations from a re-analysis of the deposited data

How the results depend on the processing

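Counts of genes are given as higher and lower in members. Against Gpha2-high cells (36 and 14) DESeq2 gave 33 and 8, no filter on low counts 51 and 47, no replicate block 2 and 0, matched UMIs 3 and 1, at least 4000 UMIs 19 and 11, no Krt4, Krt13 or Krt19 UMI 11 and 7, and a Krt12 share under 0.2 gave 21 and 14. Against Krt12-dominant cells (772 and 670) DESeq2 gave 638 and 377, no replicate block 308 and 278, matched UMIs 437 and 413, Gpha2 of 0 only 435 and 382, and no Krt4, Krt13 or Krt19 UMI 416 and 380. Without a filter the split was 737 and 844, and the median log2 difference of all genes shifted to -0.23. Against conjunctival-keratin cells (59 and 162) DESeq2 gave 39 and 99, no filter 90 and 266, no replicate block 0 and 11 (886 before adjustment), matched UMIs 9 and 21, Gpha2 of 0 only 17 and 59, and a Krt12 share under 0.2 gave 36 and 144. Fewer cells entered the matched and stricter settings. The cause of the other shifts was not tested.

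The share of members in library 1 was 2.42% with Gpha2 of 0 only, 2.29% with no Krt4, Krt13 or Krt19 UMI and 3.26% with a Krt12 share under 0.2. In library 2 it was 1.77%, 1.80% and 2.97% under those gates, 1.84% with at least 4000 UMIs and 2.52% with at least 2000 UMIs, a limit added after the data were seen. Without thinning, 39.6% of library 1 members had an Lcn2 UMI and 83.5% an Mki67 UMI, against 25.6% and 70.5%.

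Of 2527 recomputed values of named genes with a test, 1868 kept direction and call, 657 lost the call and 2 changed sign. The 657 were 224 against Gpha2-high, 292 against Krt12-dominant and 141 against conjunctival-keratin cells. With single-library values included, these comparisons had 633, 1671 and 685 values, so calls against Gpha2-high cells were lost most often. Of 462 single-library values, which have no test, 61 moved by more than the spread between libraries and 1 changed sign. The 3 that changed sign were Spink5 against conjunctival-keratin cells with matched UMIs (log2 difference 0.0897, edgeR adjusted p = 0.996), Krt16 against Krt12-dominant cells with no Krt4, Krt13 or Krt19 UMI (0.10, edgeR adjusted p = 0.879) and Akr1b8 against Krt12-dominant cells in library 2 alone (0.19, and -1.43 in library 1 alone). Against Gpha2-high cells Rbp2 kept its call in all 11 tested alternatives, with adjusted p-values in edgeR up to 0.00807. Calml3 kept it in all but those with no replicate block and with matched UMIs. A library left out leaves no residual degrees of freedom, so those are values with no test. The value of a single library always lies within the spread between libraries around their mean. Genes named by rule also had to agree in sign, so few single-library values could move or change sign. The 40 members of library 2 under 2000 UMIs limit what can be said there.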
